A study of Macaca mulatta with 12 samples.

Results

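The miR-7 and miR-375 genes of the rhesus macaque are 4 of the 831 pre-miRNAs whose sequences were read for the series, and they were chosen by name: mml-mir-7-1, mml-mir-7-2, mml-mir-7-3 and mml-mir-375. The 3 mir-7 genes encode the same mature miR-7-5p, which was therefore counted as 1 miRNA, while their 3' arms differ and show which gene the reads came from. The small RNAs were sequenced in 12 profiles of 8 tissues. The small intestine, the large intestine, kidney and muscle were each sequenced as 2 profiles, whereas occipital lobe, spinal cord, lung and liver were each sequenced as 1. All profiles came from wild-type monkeys of 36 months that had received no treatment, and the methods name 2 animals without saying which profile came from which. The replicates are therefore separate samples of a tissue, and their spread may be partly technical.

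A pre-miRNA is a hairpin that is cleaved into a short duplex, and the strand that remains in the effector complex finds its targets through its seed, the bases 2 to 8 from the 5' end. miR-7 is conserved from worms and insects to primates and is best known from neurons, the pituitary and the hormone cells of the pancreas, where the circular RNA CDR1as binds it at many sites. miR-375 is best known from pancreatic islets, where it restrains insulin secretion, and it is also a miRNA of the gut epithelium. Neither pancreas nor pituitary was among the tissues, so the endocrine side of both miRNAs could be examined only in organs that hold scattered hormone cells, such as the intestine.

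The hairpins are shown because the letters around the shared 5' arm, and those of the 3' arm, are what tells the 3 mir-7 genes apart. They come from the study's list of pre-miRNAs, and capitals mark the arms on which most reads lay.
mml-mir-7-1: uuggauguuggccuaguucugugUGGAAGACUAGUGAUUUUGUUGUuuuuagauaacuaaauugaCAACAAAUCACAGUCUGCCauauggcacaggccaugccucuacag
mml-mir-7-2: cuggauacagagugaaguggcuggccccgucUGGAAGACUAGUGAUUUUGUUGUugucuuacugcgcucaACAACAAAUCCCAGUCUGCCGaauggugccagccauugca
mml-mir-7-3: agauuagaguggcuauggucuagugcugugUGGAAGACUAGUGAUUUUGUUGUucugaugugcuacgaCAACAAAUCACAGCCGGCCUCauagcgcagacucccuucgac
mml-mir-375: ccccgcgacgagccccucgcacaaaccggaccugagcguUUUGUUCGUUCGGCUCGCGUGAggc

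The mature sequences are given with the seed in capitals. The list gives no mature sequence for the 3' arms of mir-7, so each of them was defined here as the most abundant exactly matching read of its arm.
miR-7-5p: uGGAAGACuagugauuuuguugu
miR-7-1-3p: cAACAAAUcacagucugcc
miR-7-2-3p: aCAACAAAucccagucugccg
miR-7-3-3p: cAACAAAUcacagccggccuc
miR-375-3p: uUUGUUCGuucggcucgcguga

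In the RefSeq annotation of the macaque assembly T2T-MMU8v2.0, which is not the assembly the study used, MIR7-1 lies on chromosome 15 inside HNRNPK, the gene of an RNA-binding protein. MIR7-2 lies on chromosome 7 within the span of AEN, with MIR1179 and ISG20 as its neighbours. MIR7-3 lies on chromosome 19 within LOC106994612, beside FEM1A. MIR375 lies on chromosome 12 within LOC144333495, between CRYBA2, a crystallin gene, and CFAP65.

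Levels are given in RPTM, the reads per 10000000 valid reads of a profile. The profiles held 22118095 to 25579064 valid reads, so depth differed little between them. Reads counted for a mature miRNA if they matched its hairpin without mismatch and started and ended no more than 2 nucleotides from its ends. Known tissue markers followed the labels in part. The muscle miRNA miR-133a-3p was highest in muscle 2 and muscle 1, and the liver miRNA miR-122a-5p in liver. The neural miR-9-5p was highest in occipital lobe and spinal cord. Of the gut miRNAs miR-192-5p, miR-194-5p and miR-215-5p, only the last was higher in all intestinal profiles than elsewhere. In liver, miR-192-5p had 1203647 RPTM, above large intestine 1 (978784 RPTM) and 2 (443632 RPTM), and miR-194-5p was above both as well. miR-10b-5p was higher in spinal cord than in occipital lobe (379494 against 8946 RPTM), but miR-196b-5p was not (2.51 against 3.48 RPTM). No marker was chosen for kidney, and the exocrine pancreas miRNA miR-217-5p was at 0 reads in all 12 profiles. For the tests, read counts were scaled with TMM factors of edgeR, which ranged from 0.552 in large intestine 2 to 2.34 in spinal cord, and the test was run on the 373 mature sequences whose mean reached 5 RPTM with a standard deviation of 1 or more. On this scale the median log2 difference of all tested sequences was 0.85 for the neural tissues against the others, and it was 1.98 when the valid reads were used instead. For the intestine the 2 medians were -0.08 and -0.97. Fold changes of the members are best read against these medians.

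The reads of the 3' arms were spread differently over the mir-7 genes in neural and other tissues. Levels of a 3' arm need not follow the use of its gene, which was not measured. miR-7-2-3p had 212.5 RPTM in the occipital lobe (489 reads) and 68.2 RPTM in the spinal cord (163 reads). Outside the neural tissues it was found only in small intestine 2, with 3 reads (1.27 RPTM), and in large intestine 2, with 2 reads (0.850 RPTM). The other 8 profiles held 0 reads, and a count of 0, taken as an upper limit of 3 reads, allows up to 1.17 to 1.36 RPTM at these depths. The neural and the other profiles did not overlap. In whole tissue, fewer cells that express a miRNA and less of it per cell cannot be told apart.

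miR-7-3-3p followed the same order at a lower level. It had 40.9 RPTM in the occipital lobe (94 reads) and 21.3 RPTM in the spinal cord (51 reads), while large intestine 1 had 2 reads (0.904 RPTM) and the other 9 profiles had 0.

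miR-7-1-3p was the only one of the 3 arms with reads in every profile. It had 86.5 RPTM in the occipital lobe (199 reads) and 21.3 RPTM in the spinal cord (51 reads). The intestine had 6.96 and 9.28 RPTM in small intestine 1 and 2, and 7.69 and 3.40 RPTM in large intestine 1 and 2. Lung had 9.18 RPTM with 21 reads, which put it among the intestinal profiles. Liver (3.23 RPTM), kidney 1 and 2 (3.13 and 3.72 RPTM) and muscle 1 and 2 (2.92 and 1.74 RPTM) had 4 to 9 reads each, and did not differ beyond counting error from large intestine 2. Both neural profiles were above all others in RPTM. On the TMM scale this held only for the occipital lobe, at 8.33 CPM (counts scaled to library size and TMM factor). The spinal cord, at 1.57, was below small intestine 2 (2.36), large intestine 1 (1.97) and small intestine 1 (1.88), and above large intestine 2 (1.015).

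**Figure D1:**
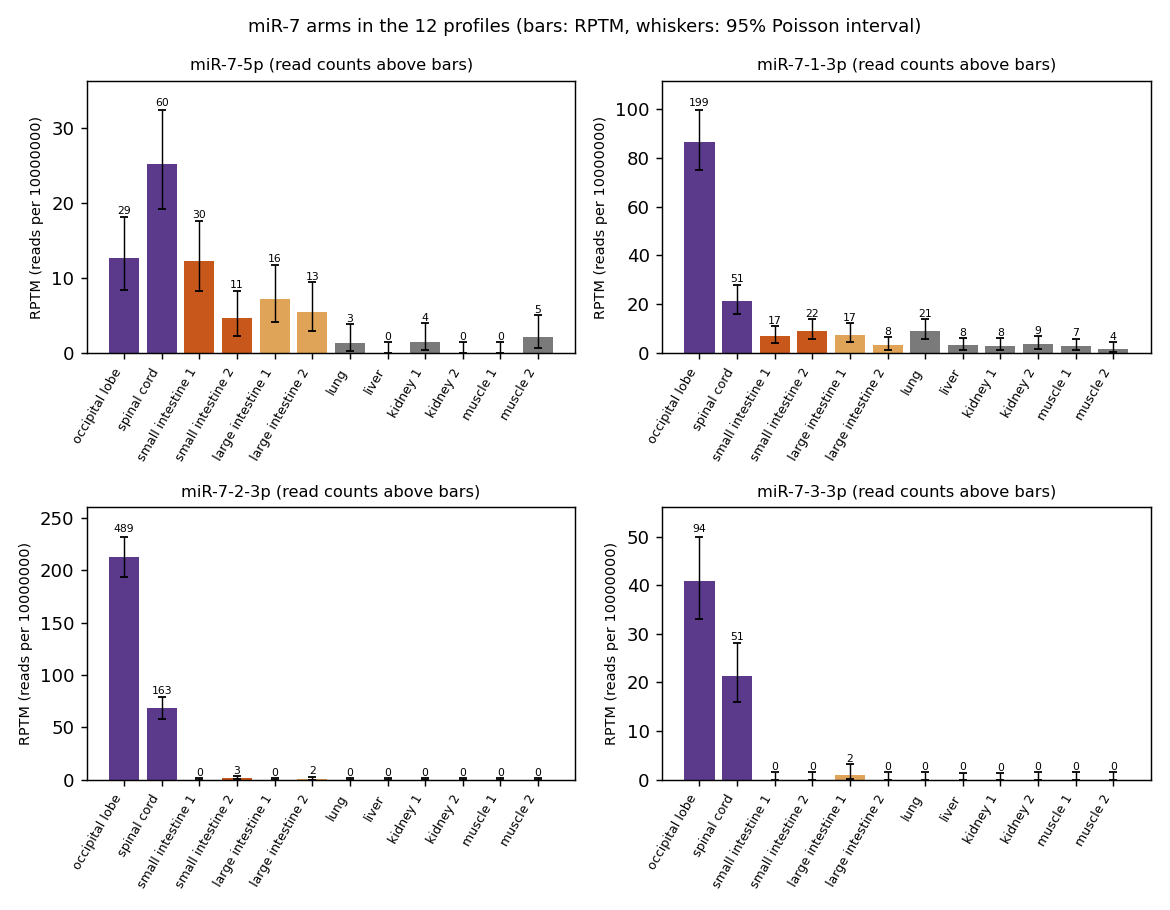
Levels of miR-7-5p and of the 3 miR-7 3' arms in each of the 12 profiles, in RPTM on linear axes that differ between panels, with read counts above the bars and two-sided 95% Poisson intervals as whiskers, which are wider than the limit of 3 reads used in the text for a count of 0. miR-7-2-3p and miR-7-3-3p stand almost alone in the occipital lobe and the spinal cord, whereas miR-7-1-3p has reads in every profile.

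Pooling the reads of both neural profiles and of the other 10, miR-7-2-3p was 662 times as high in the neural tissues (exact 95% interval 282 to 2045, from 652 against 5 reads), and miR-7-3-3p 368 times (100.1 to 3068, from 145 against 2 reads). miR-7-1-3p was 10.5 times as high (8.41 to 13.1). The interval of miR-7-1-3p lay below those of the other arms. With the spinal cord alone the ratios were 325 for miR-7-2-3p, 254 for miR-7-3-3p and 4.2 for miR-7-1-3p, and with the occipital lobe alone they were 1012, 486 and 17.02. Poisson, Wilson and exact intervals of reads cover counting error only, whereas the standard errors and intervals of edgeR also hold the spread between samples.

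Of the 782 reads of 3' arms in the occipital lobe, 62.5% came from mir-7-2 (Wilson 95% interval 59.1% to 65.9%), 25.4% from mir-7-1 and the remaining 94 reads from mir-7-3 (9.92% to 14.5%). In the spinal cord, 61.5% of 265 reads came from mir-7-2 (55.5% to 67.2%), 19.2% from mir-7-1 and 19.2% from mir-7-3 (14.95% to 24.4%). The share of mir-7-2 was alike in both neural tissues, while the intervals of the mir-7-3 share did not overlap. In the other 10 profiles together, 94.5% of the reads came from mir-7-1 (121 reads, interval 89.1% to 97.3%), 3.91% from mir-7-2 (5 reads) and 1.56% from mir-7-3 (2 reads). Thus mir-7-2 gave most of the 3' reads in both neural tissues, and mir-7-1 nearly all of the few reads elsewhere.

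**Figure D2:**
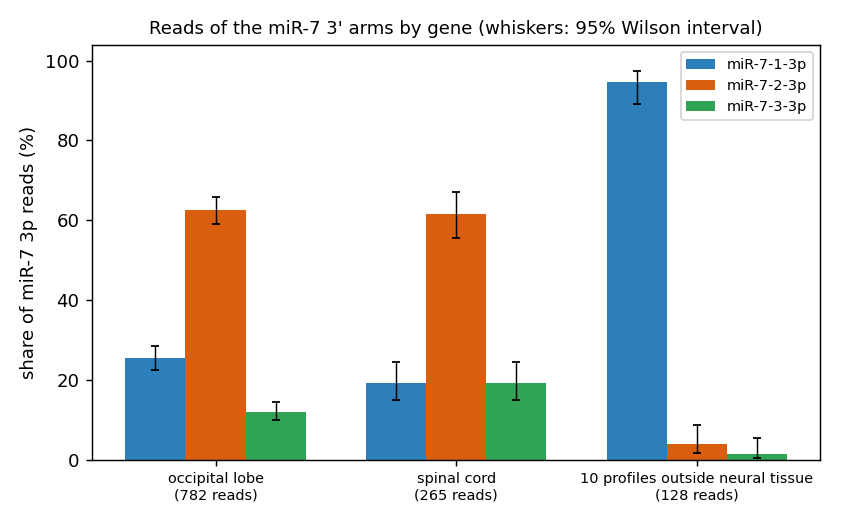
Share of the miR-7 3' arm reads that came from each gene, in percent, in the occipital lobe, the spinal cord and the 10 other profiles pooled, with 95% Wilson intervals as whiskers. mir-7-2 gives 62.5% and 61.5% in the neural tissues, and mir-7-1 gives 94.5% in the others.

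In the edgeR quasi-likelihood test with Benjamini-Hochberg adjustment, the neural tissues, taken as 1 group, were compared with the mean of the other 6 tissues. miR-7-2-3p was higher by 9.17 on the log2 scale (SE 0.96, adjusted p = 1.9e-05), miR-7-3-3p by 7.69 (SE 1.02, adjusted p = 0.000149) and miR-7-1-3p by 2.44 (SE 0.59, adjusted p = 0.00292). The first 2 arms passed the filter on low values only through the neural profiles, so that they had to differ, and their values rest on groups at 0 and depend on how edgeR treats zeros, so the ratios above are given beside them. Of all 373 sequences, 44.0% were called higher in this comparison, and 44.0% had both neural profiles above every other profile, so a call alone did not set the 3' arms apart. An exact permutation test over the 12 profiles gave p = 0.0152 for each of the 3 arms, the smallest value that 2 profiles against 10 can give. It treated the profiles as exchangeable, although 4 tissues gave 2 profiles each and the methods name 2 animals. Its p-values, here and below, ignore these pairs and may be too small. The call of miR-7-1-3p rested on the occipital lobe, without which its difference was 0.79 (edgeR, adjusted p = 0.372). The differences of miR-7-1-3p and miR-7-2-3p between the intestine and the other tissues, 0.87 (SE 0.56) and 2.03 (SE 1.22), did not pass the edgeR test (adjusted p = 0.252 and 0.230), and that of miR-7-3-3p could not be estimated, since nearly all of its groups were at 0.

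miR-1179-5p, whose gene is the neighbour of MIR7-2, was likewise highest in the neural tissues. It had 20.9 RPTM in the occipital lobe (48 reads) and 5.02 RPTM in the spinal cord (12 reads), with 1 read each in large intestine 1 and small intestine 1 and 0 in the other 8 profiles.

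The 3' arms also differed in their ends. Over the first 22 bases from the shared start, mir-7-1 and mir-7-2 differ at 3 positions and mir-7-1 and mir-7-3 at 4. Of 673 reads on the 3' arm of mir-7-2, 89.7% began 1 base before the start that was used on the other hairpins (Wilson interval 87.2% to 91.8%), and the share was alike in the occipital lobe (89.3%) and the spinal cord (91.8%). On mir-7-1, 98.3% of 528 reads began at the shared start, and on mir-7-3, 89.3% of 150 reads. Most miR-7-2-3p reads therefore carried the seed CAACAAA, and most reads of the other arms the seed AACAAAU. 

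The 3' ends were precise for mir-7-2, where 88.1% of the reads had 21 nucleotides, and mixed for mir-7-1, where 36.7% had 19 and 28.2% had 22 nucleotides. The longer form of mir-7-1 is shown because its end lies 3 bases beyond that of the most abundant read.
miR-7-1-3p, longer form: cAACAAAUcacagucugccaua
With all exactly matching reads of the arm, miR-7-1-3p rose from 371 to 528 reads in all, with 242 reads in the occipital lobe and 80 in the spinal cord. In some of the other tissues the levels rose more in proportion, from 1.74 to 5.66 RPTM in muscle 2, from 2.92 to 7.93 RPTM in muscle 1 and from 3.23 to 6.45 RPTM in liver, and lung was then the highest of them, with 16.6 RPTM. The spinal cord, at 33.5 RPTM, was still above them. The share of mir-7-1 among the 3' reads then was 29.1% in the occipital lobe and 26.6% in the spinal cord, and mir-7-2 still gave the most reads, at 59.5% and 56.5%.

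Tails, which are bases added after the end of the templated sequence, were read from alignments with up to 1 mismatch and up to 2 added bases. Uridine tails were found on 16.1% of 766 miR-7-1-3p reads, on 5.07% of the miR-7-3-3p reads and on 0.408% of 736 miR-7-2-3p reads. Reads with tails did not match exactly and were not counted in the levels and shares above. For miR-7-1-3p the share was 8.47% in the neural profiles (Wilson interval 6.18% to 11.5%) and 25.5% in the other 10 (21.2% to 30.4%). The intervals did not overlap, but they treat the pooled reads as independent.

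miR-7-5p itself was rare. It had 171 reads over all 12 profiles, with 60 in the spinal cord (25.1 RPTM) and 29 in the occipital lobe (12.6 RPTM). Small intestine 1 and 2 had 12.3 and 4.64 RPTM, and large intestine 1 and 2 had 7.23 and 5.53 RPTM. Muscle 2 (2.18 RPTM), kidney 1 (1.56 RPTM) and lung (1.31 RPTM) had 3 to 5 reads, and kidney 2, liver and muscle 1 had 0. The neural and the intestinal profiles thus were above all others, which had at most 5 reads each. The 95% Poisson interval of small intestine 2 (2.32 to 8.30 RPTM) overlapped that of muscle 2 (0.707 to 5.08 RPTM). How many of all sequences have this order was not counted, so it cannot be called unusual. The occipital lobe and small intestine 1 did not differ beyond counting error. On the TMM scale the order changed, with small intestine 1 first at 3.31 CPM. Large intestine 1 (1.86), the spinal cord (1.85), large intestine 2 (1.65), the occipital lobe (1.21) and small intestine 2 (1.18) followed.

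The 5' and 3' reads of mir-7 were also compared within each profile. miR-7-5p is the strand with the known functions, yet it made up 3.58% of the miR-7 reads of both arms in the occipital lobe (29 of 5p against 782 of 3p) and 18.5% in the spinal cord. In the intestine it made up 63.8% and 30.6% in small intestine 1 and 2, and 45.7% and 56.5% in large intestine 1 and 2. A low share was not particular to the neural tissues, since lung had 12.5% and liver, kidney 2 and muscle 1 had 0% of 7 to 9 reads.

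The first 5 bases of miR-7-5p are the same as the first bases of the 3' adapter that the authors removed from the reads. In the 12 profiles, 9530 reads began with these 5 bases, which placed them at rank 823 of the 1024 possible starts, where the median start had 21136 reads. By contrast, 9435452 reads held the same 5 bases further inside, 3960595 of them miR-30a-5p. Within each profile, 116 to 3517 reads began with the 5 bases and 381981 to 1307394 held them later. Other miRNAs with this start were found, among them miR-1-3p with 3619 reads, of which 2252 and 1209 came from muscle 1 and 2. In these profiles miR-133a-3p, which does not have this start, had 310900 and 332062 reads. The paper describes miR-1 and miR-133 as a cluster in the genome. The reason for the difference was not tested.

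**Figure D3:**
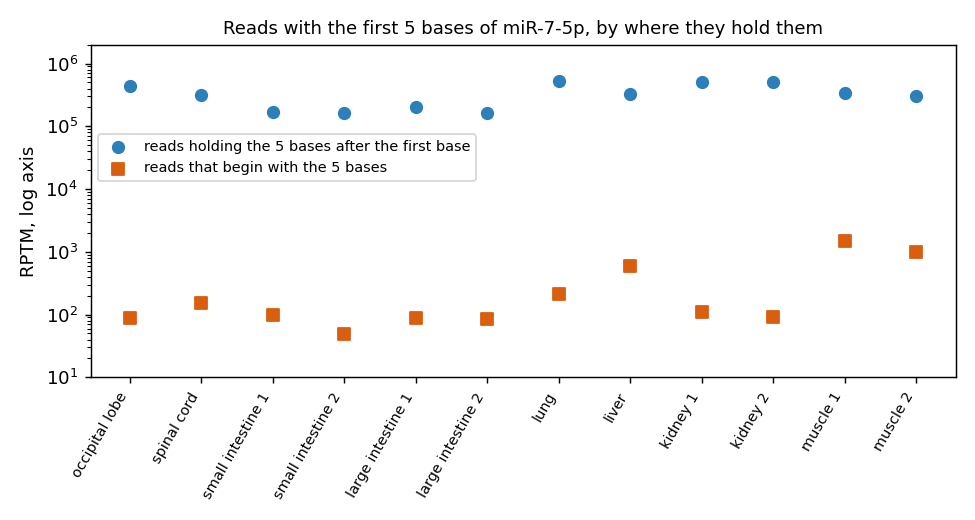
Reads that hold the first 5 bases of miR-7-5p in each of the 12 profiles, in RPTM on a log axis, with squares for reads that begin with them and circles for reads that hold them later. In every profile the squares lie far below the circles, with totals of 9530 and 9435452 reads.

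The reads of miR-7-5p also differed at their starts from those of miR-375-3p. Among reads with 1 changed base, 23 of 30 miR-7-5p reads (76.7%, Wilson interval 59.1% to 88.2%) had the change in the first 5 bases, which make up 22.7% of the positions examined. For miR-375-3p the share was 22.3%, with 23.8% of the positions. Of the exactly matching reads, 15.8% of miR-7-5p and 1.03% of miR-375-3p began after the annotated start. Whether the removal of the adapter lowered the counts of miR-7-5p was not tested, and the levels of miR-7-5p given here are those of the reads that remained.

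With this limit, miR-7-5p was higher in the neural tissues by 2.70 on the log2 scale (edgeR, SE 0.86, adjusted p = 0.0144), in a comparison where 44.0% of all sequences were called higher. The call did not hold without the liver (1.74, adjusted p = 0.0647), without the spinal cord (2.33, adjusted p = 0.0584) or with DESeq2 (2.40, adjusted p = 0.0618). For the intestine against the other tissues the difference was 3.76 (edgeR, SE 0.83, adjusted p = 0.00535), where 20.1% of all sequences were called higher. The exact permutation test over profiles gave p = 0.0152 for the neural and p = 0.172 for the intestinal comparison. The small and the large intestine did not differ detectably (0.35, SE 1.07, 95% interval -1.99 to 2.70, edgeR adjusted p = 0.985).

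Only few reads of the 5' side could be tied to a gene. Of the miR-7-5p reads long enough to reach a base that differs between the hairpins, 11 came from mir-7-2, with 5 in the occipital lobe and 6 in the spinal cord. mir-7-1 had 2 such reads, in lung and small intestine 2, and mir-7-3 had 2, in occipital lobe and small intestine 1. Fragments of the hairpin that end 1 base before the 5' arm were found 89 times for mir-7-1, in 11 profiles, and 3 times each for mir-7-2 and mir-7-3, in the occipital lobe alone. In the occipital lobe mir-7-1 had 23 of these fragments, more than mir-7-2, unlike the order of the 3' arms there.

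miR-375-3p was present in every profile and covered a wide range. It had 108890 and 107201 RPTM in small intestine 1 and 2, 95210 RPTM in large intestine 1 and 42511 RPTM in large intestine 2. Lung followed with 42424 RPTM and liver with 28507 RPTM. The spinal cord had 4107 RPTM, muscle 1 and 2 had 1088 and 575 RPTM, kidney 1 and 2 had 807 and 1076 RPTM, and the occipital lobe had 581 RPTM. The 4 intestinal profiles were above all others, but large intestine 2 exceeded lung by a factor of only 1.002. The small intestine reached a mean of 108045 ± 1194 RPTM and the large intestine 68861 ± 37264 RPTM, against 941 ± 191 RPTM in kidney and 831 ± 362 RPTM in muscle (SD, n = 2 each).

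The profiles of a tissue differed by up to 1.16 on the log2 scale, in large intestine, and by 0.02 in small intestine. Beyond the step between the large intestine profiles, only the steps from liver to spinal cord (2.80) and from spinal cord to muscle 1 (1.92) were larger than this, so that the order among lung, liver and large intestine 2, and among kidney, muscle and occipital lobe, was not separated by the spread between profiles. On the TMM scale the intestine stood further apart, with 12680 CPM in large intestine 2 against 4941 in lung and 4633 in liver.

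**Figure D4:**
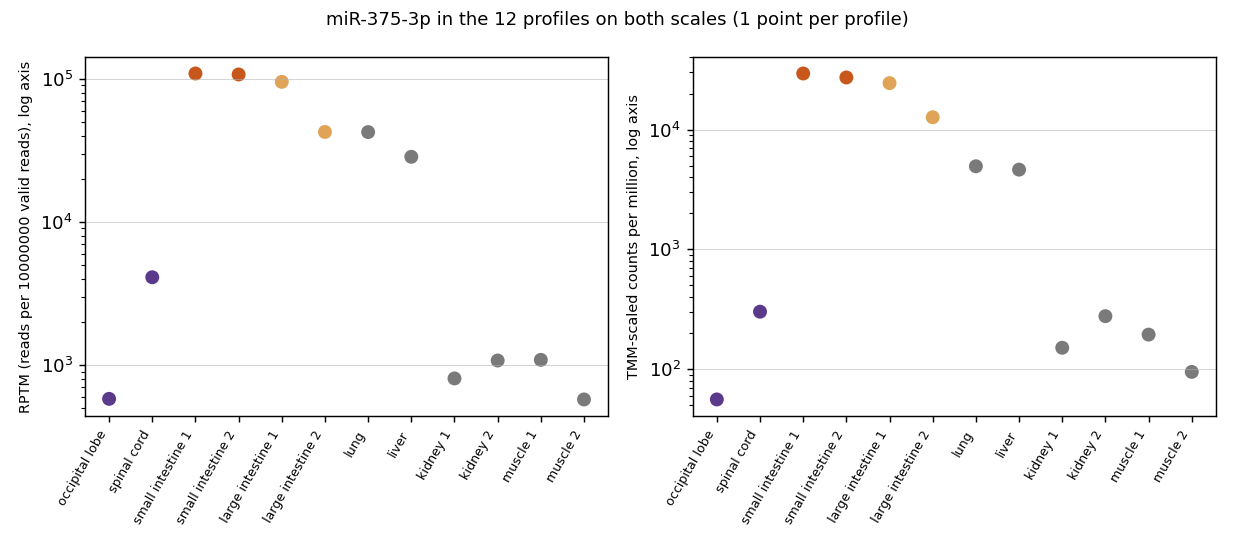
Level of miR-375-3p in each of the 12 profiles on log axes, as RPTM on the left and as TMM-scaled CPM on the right, with 1 point per profile. The 4 intestinal profiles are highest on both scales, lung and liver follow, and spinal cord, kidney, muscle and occipital lobe are far lower.

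miR-375-3p was higher in the intestine than in the mean of the other 5 groups by 5.11 on the log2 scale (edgeR, SE 0.49, adjusted p = 9.0e-06). Of all sequences, 20.1% were called higher in this comparison, and 2.95%, or 11 of 373, had all 4 intestinal profiles above every other profile. The exact permutation test gave p = 0.00606, where 4 profiles against 8 can give no less than 0.00202. This p-value ignores that the 4 intestinal profiles are 2 tissues with 2 profiles each. Between small and large intestine the difference of 0.61 did not pass the test (edgeR, SE 0.70, 95% interval -0.92 to 2.14, adjusted p = 0.925), a comparison in which 1.61% of all sequences were called higher. Both small intestine profiles were above both large intestine profiles, as for 23.3% of all sequences.

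In the neural tissues miR-375-3p was lower than in the mean of the other tissues by 3.90 on the log2 scale (edgeR, SE 0.73, adjusted p = 0.000491), where 24.7% of all sequences were called lower. The size depended on the library, with a difference of -5.58 without the spinal cord and -3.15 without the occipital lobe, and it was -2.56 with valid reads as library size. The neural profiles were not the lowest as a group, since the spinal cord was above both kidney and both muscle profiles, and the exact permutation test gave p = 0.379. miR-375-3p took between 0.00949% of the assigned reads, in muscle 2, and 1.84%, in large intestine 1. It ranked 6th among all mature sequences in large intestine 1, and 118th in the occipital lobe.

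The other arm was nearly absent. miR-375-5p was found with 2 reads, both in the liver, against 1018332 reads of miR-375-3p in all, so that it was not tested.

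The ends of miR-375-3p differed little between the tissues. Between 94.9% and 96.1% of the exactly matching reads of a profile were identical to the annotated sequence. Adenosine tails were found on 1.30% of the reads in the occipital lobe and on up to 3.73% in lung. In the seed, the most frequent change was seen in 0.367% of the reads of a profile, and no change of the seed reached 5% in any profile.

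The last base was the exception. The change A22G, counted from the 5' end of miR-375-3p, was read as the only change in 12.9% of the reads of small intestine 1 (Wilson interval 12.8% to 13.0%) and in 4.58% of those of small intestine 2 (4.50% to 4.66%), the highest and the lowest share of all 12 profiles. Liver had 10.3%, the large intestine profiles had 7.89% and 8.06%, and lung had 5.78%. The same change at the same position was read in miR-21-5p, in 1.39% to 6.93% of the reads, and in miR-28-3p, in 1.73% to 6.42%. These are the only other miRNAs of 22 nucleotides that end in A and had over 300000 identical reads, and both were lowest in small intestine 2 and highest in liver. A changed last base and a shorter read with an added G cannot be told apart. The share of changed last bases therefore moved with the profile in 3 unrelated miRNAs, and its part in any tissue difference of miR-375-3p was not tested.

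**Figure D5:**
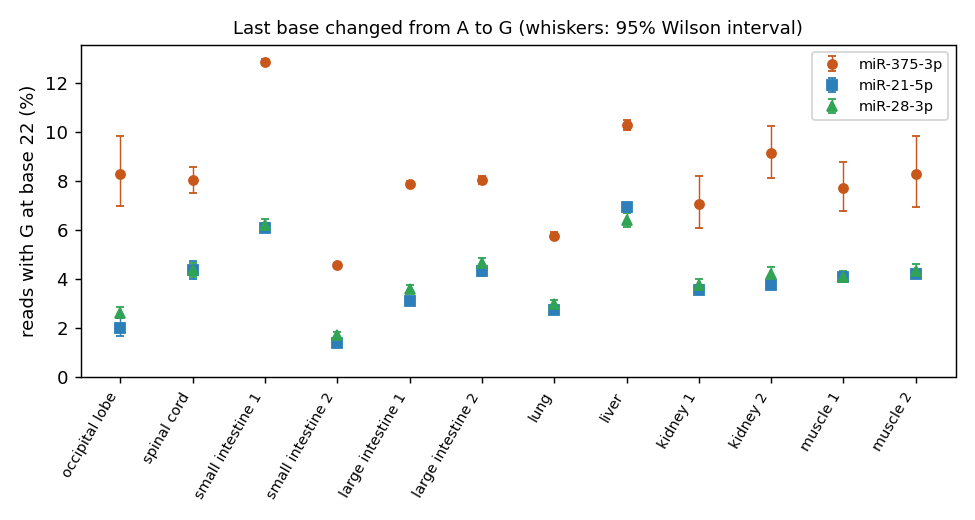
Share of reads with G in place of the A at base 22, in percent, for miR-375-3p, miR-21-5p and miR-28-3p in each of the 12 profiles, with 95% Wilson intervals as whiskers. For miR-375-3p the share is highest in small intestine 1 (12.9%) and lowest in small intestine 2 (4.58%), and all 3 miRNAs are lowest in small intestine 2.

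Groups of miRNAs known from the cells in which miR-7 and miR-375 occur were set beside them. All 16 tested neuronal sequences were higher in the neural tissues, in a comparison where 44.0% of all 373 were called higher, with a median log2 difference of 5.76 against 0.85 for all. Among them miR-9-5p, a miRNA of neural progenitors and neurons, had 383871 RPTM in the occipital lobe and 261318 RPTM in the spinal cord, and miR-124a-3p, the best-known miRNA of neurons, had 10508 and 3278 RPTM. All 4 oligodendrocyte sequences were higher as well, but with the opposite order, as miR-219-2-3p, a miRNA of myelinating cells, had 2329 RPTM in the occipital lobe and 18456 RPTM in the spinal cord. miR-7-2-3p, miR-7-3-3p and miR-7-1-3p were higher in the occipital lobe, like miR-124a-3p, and miR-7-5p was higher in the spinal cord.

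Of 14 gut epithelium sequences, 13 were higher in the intestine and 1 was not called, where 20.1% of all sequences were called higher. In the neural tissues 10 were lower, 1 was higher and 3 were not called, where 24.7% of all were called lower. Their median log2 difference was 5.48 in the intestinal comparison, where miR-375-3p had 5.11 and all tested sequences had -0.08. miR-215-5p, a miRNA of the intestinal lining, had 166876 and 183652 RPTM in the small intestine and 18791 and 6963 RPTM in the large intestine, and it was higher in the small intestine by 3.73 (edgeR, SE 0.76, adjusted p = 0.0241). miR-141-3p, an epithelial miRNA, was highest in lung with 9354 RPTM, above small intestine 1 with 7970 RPTM.

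Of 29 tested sequences from studies of pancreatic islets, 14 were higher and 2 lower in the intestine (20.1% and 13.9% of all tested), and 10 were higher and 11 lower in the neural tissues (44.0% and 24.7% of all tested). Their medians were 1.21 and -0.88 on the log2 scale. Several of them, such as miR-26a-5p and miR-21-5p, are abundant in most tissues. The exocrine pancreas sequences were too rare to be tested, with at most 9.62 RPTM for miR-216b-5p in the spinal cord. miR-671-3p, from the hairpin whose other arm directs the cleavage of CDR1as, was at 189 RPTM in the occipital lobe, 142 RPTM in the spinal cord and 203.5 RPTM in muscle 2, and it was not called in the neural tissues (0.71, edgeR, SE 0.40, adjusted p = 0.133).

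The sequences whose profiles were most like those of the members were found by the Pearson correlation of log2(RPTM + 1) over the 12 profiles, which share the depth and the preparation of their libraries. For miR-7-5p these were miR-577-5p (r = 0.877), miR-4446-3p (r = 0.834) and miR-212-3p (r = 0.833). For miR-375-3p they were miR-142-3p (r = 0.907), a miRNA of blood cells, miR-19a-3p (r = 0.839) and miR-203-3p (r = 0.803), a miRNA of stratified epithelia. The resemblance was partial, since miR-203-3p was highest in lung with 3364 RPTM and had 292 and 522 RPTM in the small intestine.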

How the data were processed

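Small RNAs of 12 profiles were sequenced by the authors with the TruSeq small RNA kit. Reads with a score under 30 in the first 25 nucleotides were dropped, the 3' adapter was trimmed, and the authors discarded sequences shorter than 18 nucleotides and deposited the counts of unique sequences, without normalization. The pre-miRNAs were read from a shortened copy of the study's list. The members and the lists of miRNAs were chosen with earlier results of these data known.

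Here, unique sequences were matched exactly to 831 hairpins, and reads near several mature sequences were counted for each of them. No genome was used, so that matches elsewhere in the genome were not examined. The counts were tested with edgeR 4.0.16 in R 4.3.3 (quasi-likelihood test, TMM factors, 7 groups with both neural tissues as 1), and standard errors were derived from the F statistic. DESeq2 1.42.0, valid reads as library size, other rules of assignment and filters, separate neural groups, a replicate block and leaving out 1 profile at a time were the alternatives. Python 3.11.15 with scipy 1.17.1 gave exact Poisson and Wilson intervals of 95%. Exact two-sided permutation tests on log2(RPTM + 1), with the profiles as exchangeable units, were run in R. In data simulated for the neural comparison with 373 sequences, 100% of 75 changed by a factor of 8 were called, with 0 false calls. The simulation gave all other tissues the same mean, unlike the data, so it checks the code and not the error rate here. Named are all arms of the members, the 3 sequences most correlated with miR-7-5p and with miR-375-3p, and up to 4 abundant sequences of each list. miR-1179-5p and the sequences of the read-start and last-base comparisons were named after their values were seen.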

Additional observations from a re-analysis of the deposited data

How the results depend on the processing

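miR-375-3p stayed higher in the intestine under all 22 alternatives, by 4.21 to 6.88 on the log2 scale (adjusted or permutation p at most 0.00606), and its difference between small and large intestine passed the threshold under none of 21. miR-7-2-3p and miR-7-3-3p stayed higher in the neural tissues under all 19 and 18 alternatives, by 7.77 to 10.2 and by 6.79 to 8.67. Both were nearly without reads elsewhere and passed the main filter only through the neural profiles, so this had to follow and adds no support. The main filter likewise let in miR-7-5p only through the neural profiles. miR-7-5p kept its direction in the neural tissues, but not its call with DESeq2 (2.40, adjusted p = 0.0618) or without liver or spinal cord, and leaving out 1 profile gave 1.74 to 3.41. miR-7-1-3p lost its call without the occipital lobe (0.79, adjusted p = 0.372). The cause was not tested. With reads identical to the mature sequence only, miR-7-5p was too rare to be tested.

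The counts of called sequences depended on the scale. With valid reads as library size, 46 instead of 92 sequences were lower in the neural tissues, and in the intestine 30 instead of 75 were higher and 161 instead of 52 lower. Over all alternatives, 105 to 234 were higher and 46 to 115 lower in the neural tissues, 30 to 99 higher and 27 to 161 lower in the intestine, and 1 to 9 higher and 0 to 2 lower in small against large intestine. Without large intestine 1 the intestinal count of lower sequences was 27, without small intestine 2 it was 33, and without small intestine 1 the count of higher ones was 49.

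The labels do not say whether the replicate numbers stand for animals. Profiles with the same number deviated from their tissue means with correlations of -0.139 to 0.152 (mean 0.03, 6 pairs of tissues). Such low correlations cannot decide this, since differences between animals need not be shared by their tissues. With a replicate block on the 8 numbered profiles, against kidney and muscle only, miR-375-3p was higher in the intestine by 6.87 (6.88 without the block) and differed by 0.53 between small and large intestine (0.46 without), with no change of call. No paired analysis was possible for the neural tissues because their profiles carry no number. The few reads of miR-7-5p and the profiles without replicates limit the precision.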

Other observations

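A second change of miR-375-3p was read almost only together with the changed last base. Only reads of 22 nucleotides without any other change were counted for this. G17C, counted from the 5' end, was found in 13504 of them that also carried A22G, which were 99.1% of those with G17C. In the other direction, 12.8% of the reads with A22G, counted here with and without the second change, also carried G17C. The read is shown with the changed bases in capitals.
miR-375-3p changed at bases 17 and 22: uuuguucguucggcucCcgugG
Among reads of this length, G17C was read in 0.271% in small intestine 2 and in 2.34% in liver, with 2.25% in small intestine 1. Small intestine 1 and liver, the highest for A22G, were thus also the highest for G17C, and small intestine 2 was the lowest for both. The other profiles did not all keep this order. Kidney 2 had 9.14% for A22G but 1.03% for G17C, and the occipital lobe had 8.30% but 0.847%. No genome was searched, so it was not tested whether another locus holds this sequence.

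Reads of mir-375 that ran beyond the annotated end of miR-375-3p were few and often carried U in place of the templated G directly after it. In the 6 profiles with the most such reads, the share was 44.8% to 73.0% of 272 to 897 reads, and in the spinal cord it was 17 of 26 reads. A read was counted here only if the templated G came after the U, so that this G was set by the counting. The most frequent such read, found 1399 times, ended with a further G. The letters U, G and G are also the first letters of the 3' adapter, read as T, G and G. Whether they are remains of the adapter was not tested.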
